A study of Mus musculus with 6 samples.

Results

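Fibronectin, tenascin-C, periostin, SPARC, thrombospondins 1 to 4 and the secreted proteins CCN1 and CCN2 are the products of the 10 genes described here, taken by symbol from the 43432 genes counted in each library. All 10 symbols matched 1 Ensembl identifier each, and all 10 genes passed the filter on low counts. The RNA was labelled mouse skeletal muscle and was sequenced in 3 libraries labelled FID and 3 labelled control, all with the tag D3. The study used mice with a deletion of Igf1 restricted to FAPs, or fibro-adipogenic progenitors, which are mesenchymal cells living between muscle fibres, and addressed what IGF-I from these cells does for them and for the muscle. Neither FID nor D3 is spelled out in the sources used here, nor is the driver of the deletion, and the sample labels mention no injury. Per the labels' protocols, tamoxifen at 100 ug per g was given for 5 days to mice aged 12 to 13 weeks of both sexes, at least 1 week before the experiments, with no difference stated between the groups. The labels name frozen muscle as the source, while the protocols describe RNA of primary FAPs too. Which of these was sequenced is not settled by the labels. Whether each library is a different mouse is not stated, and the p-values therefore reflect only how these libraries vary, which may be in part technical.

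Matricellular proteins are secreted into the matrix around cells but act mainly as signals: they bind integrins, syndecans and growth factors and change how cells attach, migrate and respond. In skeletal muscle many of them are low at rest and are made by fibroblasts, FAPs, vessel cells and macrophages during repair. Fibronectin and SPARC also take part in building collagen fibres.

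Gene counts summed to between 8750157 and 9676812 in the FID libraries and to between 5201853 and 10093757 in the control libraries, control 1 being the shallowest. Marker genes of mature fibres were scarce: the 8 listed summed to 15.7 to 25.4 CPM in FID and 6.29 to 52.6 CPM in control, highest in control 1. Acta1, the most abundant of them, reached 16.2 CPM in FID and 30.9 CPM in control. Ckm, the muscle creatine kinase, reached at most 1.19 CPM in FID and 0.976 CPM in control. The summed FAP and fibroblast markers, most of it Col1a1, lay at 14768 CPM or more in every library, far above the fibre markers. The levels given here are therefore not taken as those of whole muscle. CPM are counts scaled to the library's total after TMM normalisation, a correction for differences in library composition. FID 1 lay between the groups on the first principal component, at -2.05, against -41.0 and -38.5 for the other FID libraries and 15.2 to 41.3 for the control libraries. Igf1 itself had 109, 107 and 81.6 CPM in FID 1, 2 and 3, against 134, 60.4 and 106 CPM in control 1, 2 and 3, a difference of -0.01 on the log2 scale (FID minus control, SE 0.28; adjusted p 0.990 in edgeR). Its whole-gene count therefore does not check the labels. The groups are therefore called by their labels throughout. Library quality measures moved with the groups: reads assigned to no gene made up 9.97% to 10.9% of the FID files and 9.60% to 9.83% of the control files. Mitochondrially encoded genes took 1.63% to 2.95% of gene counts in FID and 1.18% to 1.63% in control, which overlap at FID 1 and control 3. The part of these measures in the results was not tested. For all libraries the labels give 5.6 as the lowest RNA integrity number, a measure of RNA degradation.

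Of the 10 members, 9 had a log2 fold change below 0 (lower in the libraries labelled FID), and Ccn1 went the other way. The median over the members was -0.75, against -0.02 over all 12881 genes tested, of which 52.2% were below 0. With edgeR's quasi-likelihood test and Benjamini-Hochberg adjustment over all genes, 0 members passed at an adjusted p of 0.05, as did 0% of all genes. An unadjusted p under 0.05 was reached by 5 members, all lower in FID: Fn1, Tnc, Sparc, Thbs1 and Thbs3. Of all genes, 9.21% were lower in FID at that level. DESeq2 called 3 members, Fn1, Tnc and Sparc, all lower in FID; of its tested genes it called 5.81% in either direction and 2.19% lower in FID. limma-voom called 0 members and 0% of all genes, and with sample weights 4 members, these 3 and Thbs3, against 5.01% of all genes lower in FID. Without FID 1, edgeR called 2 members, Fn1 and Thbs3, and 359 genes in all, and the members' median was -1.14. Without control 1 it called 0 members and 3 genes, with a median of -0.53. The groups did not overlap in Fn1, Tnc, Sparc, Thbs1 and Thbs3 with FID lower, against 12.3% of all genes, and in Ccn1 with FID higher, against 13.0% of all genes.

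**Figure D1:**
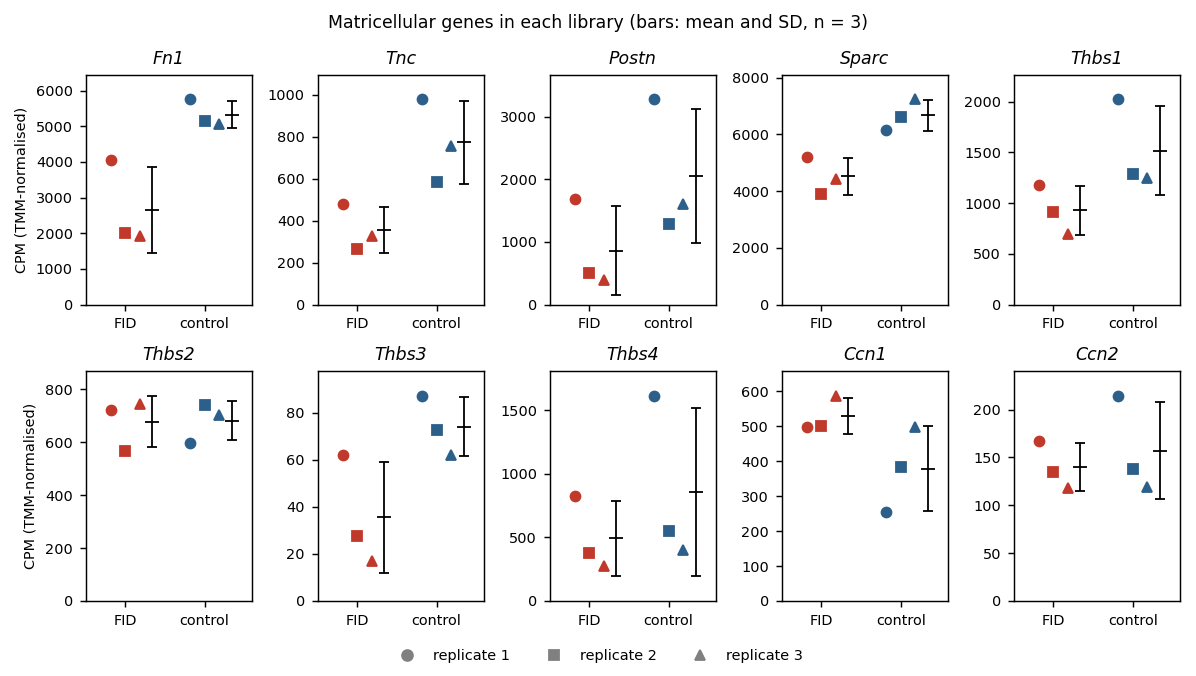
Each panel shows 1 gene, with TMM-normalised CPM on the vertical axis (from 0), FID libraries in red on the left and control libraries in blue on the right, and the mean with SD beside them. Fn1, Tnc, Sparc, Thbs1 and Thbs3 lie lower in all 3 FID libraries than in any control library. Ccn1 lies higher, and Postn, Thbs2, Thbs4 and Ccn2 overlap.

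Fn1 encodes fibronectin, the glycoprotein that cells bind through integrins and on which collagen fibres are first laid down (GENCODE vM21 on GRCm38, chromosome 1, 71585520 to 71653200, minus strand). It stood at 4054, 2016 and 1918 CPM in FID 1, 2 and 3, against 5761, 5148 and 5070.2 CPM in control 1, 2 and 3. The control libraries lay within 1.14-fold of each other, whereas FID 1 was 2.11-fold above FID 3. The means were 2663 ± 1206 CPM in FID and 5326 ± 378 CPM in control (SD, n = 3 each), a log2 fold change of -1.0003 with a standard error (SE) of 0.29 (edgeR adjusted p 0.165). Without FID 1 the log2 fold change was -1.42 and Fn1 passed edgeR's test, with an adjusted p of 0.0207. With each other library left out it missed the threshold, with values up to -0.81 without FID 3.

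Tnc encodes tenascin-C, a large matrix protein with little expression in resting tissue that appears transiently at sites of repair (chromosome 4, 63959785 to 64047015, minus strand). It had 477, 267 and 324 CPM in FID 1, 2 and 3, against 978, 582 and 757 CPM in control 1, 2 and 3. The highest FID library lay below the lowest control library. The means were 356 ± 108 CPM in FID and 772 ± 198 CPM in control (SD, n = 3 each), a log2 fold change of -1.12 (SE 0.27, 95% interval -1.74 to -0.49). Its edgeR adjusted p of 0.138 was the smallest of the members. DESeq2 gave an adjusted p of 0.00521, and edgeR without the filter on low counts one of 0.0465. Tnc missed the threshold in limma-voom (adjusted p 0.131). It also missed it in edgeR with any 1 library left out (adjusted p 0.0503 to 0.443).

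Postn encodes periostin, made by activated fibroblasts and other collagen-producing cells (chromosome 3, 54361109 to 54391037, plus strand). It varied most among the members, 8.34-fold between the highest and lowest library. It stood at 1683, 503 and 393 CPM in FID 1, 2 and 3, against 3279, 1283 and 1605 CPM in control 1, 2 and 3. FID 2 and 3 lay below every control library, and FID 1 lay within the control range. Its log2 fold change of -1.26 (SE 0.60) had an interval of -2.66 to 0.14 (edgeR adjusted p 0.302). It was -2.18 without FID 1 and -0.75 without control 1, so its size depended on single libraries.

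Sparc encodes SPARC, or osteonectin, a collagen-binding protein of the stroma (chromosome 11, 55394500 to 55423183, minus strand). It stood at 5211, 3900.2 and 4440.3 CPM in FID 1, 2 and 3, against 6138, 6616 and 7239.5 CPM in control 1, 2 and 3. The groups did not overlap, and the spread within each was small, at most 1.34-fold. The means were 4517 ± 659 CPM in FID and 6665 ± 552 CPM in control (SD, n = 3 each). On the log2 scale FID lay at -0.56 relative to control (SE 0.16, edgeR adjusted p 0.158), and the value stayed between -0.66 and -0.47 with any 1 library left out. Sparc was the steadiest of the 5 members that separated the groups with FID lower.

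**Figure D2:**
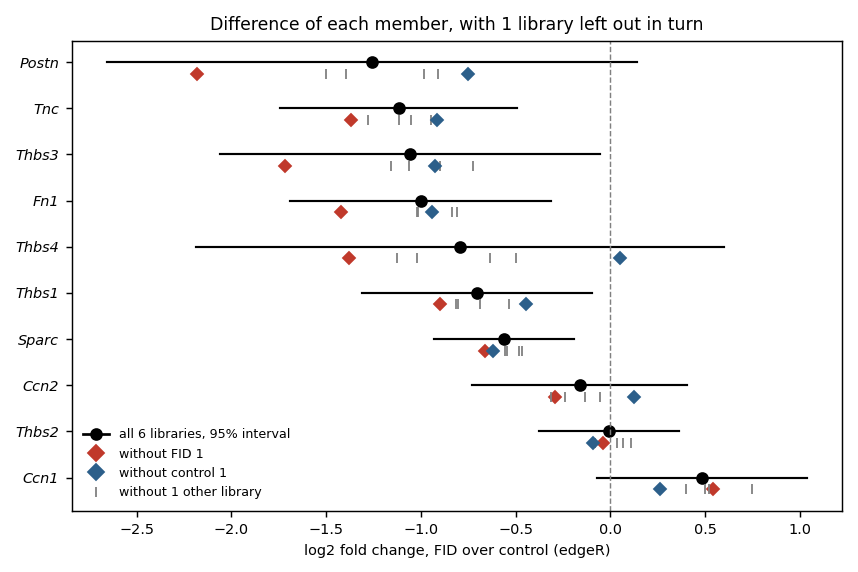
Log2 fold changes of FID over control on the horizontal axis for the 10 members, with the 95% interval from all 6 libraries (black) and the value with 1 library left out (small marks). Without FID 1 (red) the values of Postn, Thbs3 and Thbs4 move furthest to the left, and without control 1 (blue) those of Thbs4 and Ccn2 lie above 0.

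The 4 thrombospondin genes did not share 1 pattern. Thbs1 and Thbs2 encode closely related proteins that inhibit vessel growth and bind the receptors CD36 and CD47, and thrombospondin 1 also activates latent TGF-beta. Thbs1 (chromosome 2, 118111876 to 118127133, plus strand) had 1182, 909.9 and 700.15 CPM in FID 1, 2 and 3, against 2025, 1283 and 1247 CPM in control 1, 2 and 3. The groups stood apart by a small gap between FID 1 and control 3. For Thbs1 the log2 fold change was -0.71 (SE 0.26; adjusted p 0.213 in edgeR), and -0.44 without control 1. Platelets, which carry thrombospondin 1, have transcripts of their own among the markers: the platelet list of 5 genes summed to 83.2 to 171 CPM in FID and 78.0 to 108 CPM in control, with Pf4 as its main part. Their part in the level of Thbs1 was not tested.

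Thbs2 (chromosome 17, 14665500 to 14694235, minus strand) had 724, 566 and 746 CPM in FID 1, 2 and 3, against 599, 743 and 702 CPM in control 1, 2 and 3. The groups overlapped fully and their means were nearly equal, 679 ± 98.2 CPM in FID and 681 ± 74.0 CPM in control (SD, n = 3 each). Its log2 fold change was -0.0060 (SE 0.16; adjusted p 0.990 in edgeR), and the 95% interval of -0.38 to 0.36 spans a 0.770-fold to 1.29-fold level in FID. Its sign changed with the settings, reaching 0.11 without FID 2. Thbs1 per kilobase was 1.88, 1.85 and 1.08 times Thbs2 in FID 1, 2 and 3, against 3.90, 1.99 and 2.05 times in control 1, 2 and 3. This ratio, chosen after the values were seen together with Fn1 over Sparc and Ccn1 over Ccn2, gave a two-sided exact permutation p of 0.10, the smallest that 3 against 3 libraries allow (0.30 after adjustment over the 3 ratios). The other ratios gave exact p of 0.30 and 0.40. None of these p-values accounts for choosing the ratios after the values were seen, so none is taken as support for a difference.

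Thbs3 was the least abundant member. It encodes a thrombospondin of cartilage and other connective tissue (chromosome 3, 89215180 to 89226837, plus strand). It had 62.1, 27.4 and 17.1 CPM in FID 1, 2 and 3, against 87.2, 72.7 and 62.2 CPM in control 1, 2 and 3. FID 1 all but touched control 3, and the other FID libraries lay well below. Its log2 fold change of -1.06 (SE 0.43; adjusted p 0.241 in edgeR) was -1.72 without FID 1, where it passed edgeR's test with an adjusted p of 0.0343. Its exons share 318 bases with those of Mtx1 on the opposite strand, and although the library kit keeps the strand, no source used here gives the strand setting of the counting, so reads from there may not be separated. Mtx1 had at most 325 counts in any library, against 158 to 551 counts of Thbs3 in FID and 441 to 717 counts in control.

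Thbs4, known from tendon, muscle and its attachments (chromosome 13, 92751590 to 92794818, minus strand), rested on 1 library. It had 829, 379 and 271 CPM in FID 1, 2 and 3, against 1615, 554 and 399 CPM in control 1, 2 and 3. In each group 1 library stood above the others by more than 2-fold, and the groups overlapped. With all libraries the log2 fold change was -0.79 (SE 0.60; adjusted p 0.498 in edgeR) and 0.05 without control 1. Tenocyte markers summed to 129 to 285 CPM in FID and to 329 to 715 CPM in control, highest in control 1 as well. Of these 5 markers, Prg4, the lubricin gene, gave most of the sum, at 66.9 to 205 CPM in FID and 257 to 438 CPM in control, and Scx, the tendon transcription factor, had at most 1.57 CPM in FID and 2.97 CPM in control. The part of tendon cells in the level of Thbs4 was not tested.

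The related genes Ccn1 and Ccn2 differed in direction. Both encode short-lived, heparin-binding matrix proteins and are textbook targets of the mechanosensitive coactivators YAP and TAZ with the TEAD factors, and of TGF-beta. Ccn1 (chromosome 3, 145646976 to 145649981, minus strand) was the only member higher in every FID library than in every control library. It had 498, 500.4 and 588 CPM in FID 1, 2 and 3, against 254, 383 and 497 CPM in control 1, 2 and 3. The gap between FID 1, at 498.3 CPM, and control 3, at 496.8 CPM, was small, and the FID libraries were the tighter group. The means were 529 ± 51.0 CPM in FID and 378 ± 121 CPM in control (SD, n = 3 each), a log2 fold change of 0.48 (SE 0.24, interval -0.07 to 1.04, edgeR adjusted p 0.315). It was 0.26 without control 1 and 0.75 without control 3.

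Ccn2, the connective tissue growth factor gene (chromosome 10, 24595442 to 24598683, plus strand), had 167, 135 and 118 CPM in FID 1, 2 and 3, against 215, 137 and 119 CPM in control 1, 2 and 3. The groups overlapped: control 1 was highest, FID 1 came next, and the other libraries lay between 118 and 137 CPM. Its log2 fold change was -0.16 (SE 0.24, interval -0.73 to 0.41, edgeR adjusted p 0.752), and 0.13 without control 1. An antisense transcript on the opposite strand shares 826 exonic bases with Ccn2 and had at most 6 counts in any library. Such partners of Fn1, Tnc and Thbs1 had at most 9. Without the strand setting, these low counts cannot show whether reads in the shared bases were counted for the members.

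Sequences before the transcription start were available in the RefSeq promoter table (GRCm38.p6) for 7 of the 10 members. Fn1, Thbs1 and Ccn2 had no entry. In the 250 bases before each listed start, the hexamer GGAATG, the core of the TEAD motif, was searched on both strands, together with the AP-1 motif TGANTCA, the CArG box of serum response factor and TATAAA. The sequences of the 2 members that hold GGAATG, Ccn1 and Thbs4, are shown with that of Tnc, the member with the smallest adjusted p. Capitals mark the matches: CATTCC is GGAATG read on the other strand, and the 2 matches of Thbs4 share 1 base.
Ccn1 (chr3:145649986-145650235, minus strand): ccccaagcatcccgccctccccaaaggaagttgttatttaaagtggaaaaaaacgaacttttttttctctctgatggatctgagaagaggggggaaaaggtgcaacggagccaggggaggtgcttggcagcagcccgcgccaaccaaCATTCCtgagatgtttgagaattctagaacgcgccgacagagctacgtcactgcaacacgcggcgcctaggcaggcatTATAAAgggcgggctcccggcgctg
Thbs4 (chr13:92794819-92795068, minus strand): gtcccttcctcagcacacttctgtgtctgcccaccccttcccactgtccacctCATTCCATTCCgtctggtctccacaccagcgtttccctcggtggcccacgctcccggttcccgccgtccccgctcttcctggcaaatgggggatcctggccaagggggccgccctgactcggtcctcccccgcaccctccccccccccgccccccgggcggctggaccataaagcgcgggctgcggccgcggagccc
Tnc (chr4:64047016-64047265, minus strand): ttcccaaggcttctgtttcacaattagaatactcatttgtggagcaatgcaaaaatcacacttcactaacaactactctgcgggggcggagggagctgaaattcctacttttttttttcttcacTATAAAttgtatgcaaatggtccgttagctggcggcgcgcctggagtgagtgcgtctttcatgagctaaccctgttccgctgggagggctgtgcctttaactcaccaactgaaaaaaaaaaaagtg
The match in Ccn1 began 103 bases before the start, and those in Thbs4 began 197 and 192 bases before it. GGAATG occurred in 12.6% of all 32851 promoters over the same window. TATAAA occurred in 12.4% of them and in Ccn1, 25 bases before the start, in Thbs2, in both promoters listed for Tnc (126 bases before the start in the one shown) and in 1 of the 2 listed for Postn. TGANTCA (6.75% of all promoters) and the CArG box (1.47%) were found in none of the members' windows searched. In the Sparc window 238 of the 250 bases lie in annotated exons of Sparc, so it largely covers transcribed sequence. These matches describe the letters only: Ccn1 and Thbs4 share the hexamer and had log2 fold changes of 0.48 and -0.79.

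Levels of different genes were compared per length, as TPM, counts divided by the length of the merged exons and scaled to a fixed sum. Sparc was the most abundant, at 3747 ± 690 TPM in FID and 5908 ± 541 TPM in control (SD, n = 3 each), and stood apart from all other members in both groups. Below it the order differed between the groups. In FID Ccn1 came next with 820.1 ± 88.2 TPM, ahead of Fn1 with 719.95 ± 351 TPM, whereas in control Fn1 had 1531 ± 132 TPM and Ccn1, at 628 ± 206 TPM, came sixth. Ccn1 and Fn1 overlapped in FID and changed places there when the longest transcript was taken as the length. From Fn1 to Thbs2 in FID, and from Fn1 to Ccn1 in control, each gene overlapped its neighbour over the libraries, so their order is not firm. Thbs3 was lowest in both groups, at 23.3 ± 16.3 TPM in FID and 51.5 ± 9.09 TPM in control. Averaged over the libraries, 9 members lay above 95.6% or more of all genes with counts, and Thbs3 above 82.0%.

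**Figure D3:**
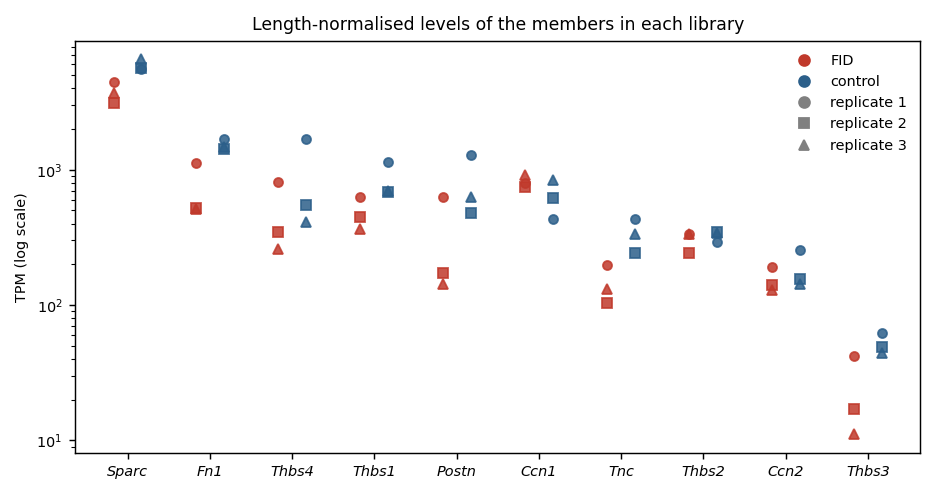
TPM on a log axis for each member, ordered by the control mean, with FID libraries in red left of control libraries in blue and marker shapes for replicates. Sparc stands above and Thbs3 below the other members in every library, and most genes between them overlap their neighbours.

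Together the 10 genes took 1.51%, 0.906% and 0.969% of all gene counts in FID 1, 2 and 3, against 2.04%, 1.66% and 1.80% in control 1, 2 and 3. Fn1 and Sparc supplied 62.2% to 66.8% of these reads in FID and 56.8% to 70.0% in control. Their part was lowest in control 1, where the sum was highest. FID 2 and FID 3 lay below every control library in 8 of the members each, and FID 1 in 5. Control 1 was the highest library for 7 members and the lowest for 1, Ccn1. The share of all genes behaving this way was not counted, so these counts are not read as a trait of the members. FID 2, FID 3 and control 1 were also the outermost libraries on the first principal component, at -41.0, -38.5 and 41.3.

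Markers of other cell types differed in how far they separated the groups, and edgeR called 0 markers of any list. DESeq2 called 5 macrophage and monocyte markers higher, and 1 FAP and fibroblast marker in each direction. It called 1 pericyte and smooth muscle marker and 1 tenocyte marker lower. Of all its tested genes it called 5.81% in either direction and 2.19% lower in FID. All 8 macrophage and monocyte markers had a log2 fold change above 0, and 5 were higher without overlap (13.0% of all genes). The groups overlapped in Lyz2, Csf1r and Mrc1, the last with a log2 fold change of 0.04. The summed level of the 8 was 5474 to 8442 CPM in FID and 2945 to 4458 CPM in control. FAP and fibroblast markers summed to 14768 to 17975 CPM in FID and 24864 to 27124 CPM in control, most of it Col1a1. The other 8 markers of that list summed to 3572 to 5112 CPM in FID and 3813 to 4580.5 CPM in control, and these ranges overlapped. In these 8, 6 were below 0 with Ly6a the main exception, at 497, 2327 and 1890 CPM in FID 1, 2 and 3, against 434, 446 and 661.5 CPM in control 1, 2 and 3. Pdgfra, the receptor that defines FAPs, had 457, 563 and 606 CPM in FID, against 565, 871 and 792 CPM in control (log2 fold change -0.46, edgeR adjusted p 0.268). Endothelial markers summed to 978 to 1668 CPM in FID and 988 to 3747.5 CPM in control, the top value being control 1. That library was also the highest for 7 of the members and in the summed pericyte, tenocyte, myofibre and myogenic markers. No listed macrophage, FAP or endothelial marker was at 0 over all libraries. In such bulk RNA, fewer cells of a type and less RNA per cell cannot be told apart, and the part of cell composition in the members' levels was not tested.

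**Figure D4:**
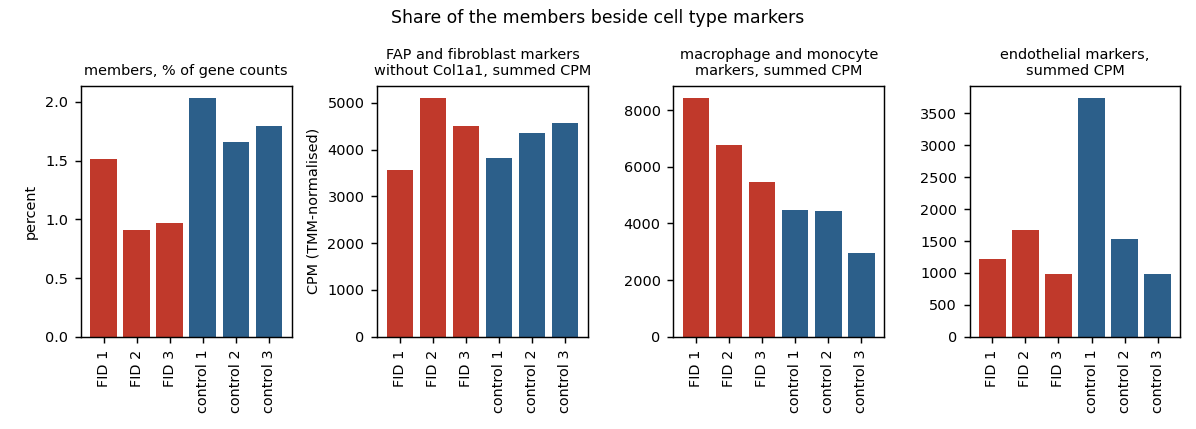
Bars give each library, FID in red left of control in blue: the percent of gene counts taken by the 10 members, and the summed CPM of 3 marker lists. The members' share is lower in all FID libraries, macrophage and monocyte markers are higher in all of them, FAP and fibroblast markers without Col1a1 overlap, and endothelial markers are highest in control 1.

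A list of 25 related matricellular genes was chosen by family, with earlier results of these data known. It had 21 tested genes, 19 of them below 0, with a median log2 fold change of -0.65. In edgeR 0 passed in either direction, and at an unadjusted p under 0.05 there were 10 lower in FID (9.21% of all genes) and 2 higher (9.81% of all genes). DESeq2 called 5 lower (2.19% of its genes) and 1 higher. The 2 higher at edgeR's unadjusted p were Spp1, encoding osteopontin, and Tgfbi. Spp1 had 1887, 2840 and 1996 CPM in FID 1, 2 and 3, against 1018, 1169 and 1280.1 CPM in control 1, 2 and 3, a difference of 0.96 on the log2 scale (FID minus control, SE 0.19; adjusted p 0.136 in edgeR). Osteopontin is made in quantity by macrophages, whose summed markers were higher in the same libraries. The part of macrophages in its level was not tested. Fbln1, encoding the matrix protein fibulin-1, had 44.8, 33.0 and 26.7 CPM in FID, against 91.2, 68.3 and 61.4 CPM in control (log2 fold change -1.08, edgeR adjusted p 0.136). Aebp1, a collagen-binding protein gene, had 639, 451 and 409 CPM in FID, against 926, 827 and 820.1 CPM in control (log2 fold change -0.78, edgeR adjusted p 0.138). Fstl1, the follistatin-like gene with the highest mean CPM of the list, had 1705, 1527 and 1590.5 CPM in FID, against 1852, 2291 and 2116 CPM in control (log2 fold change -0.38, edgeR adjusted p 0.207).

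Matrix partners of the members lay below 0 without exception. The list holds 16 genes of collagens, their processing and cross-linking enzymes, elastic fibre proteins and small proteoglycans; all were tested and below 0, with a median log2 fold change of -0.62, and 0 passed edgeR's adjusted test while 12 were lower in FID at an unadjusted p under 0.05 (9.21% of all genes) and DESeq2 called 9 lower (2.19% of its genes). Col12a1, a collagen of fibril surfaces that tenascin binds, had 182, 104 and 135 CPM in FID 1, 2 and 3, against 411, 336 and 410.5 CPM in control 1, 2 and 3 (log2 fold change -1.46, SE 0.22, edgeR adjusted p 0.122). Col1a1, the main collagen chain of scar and tendon, had 14402, 10911 and 10260 CPM in FID, against 23312, 22389 and 20284 CPM in control (log2 fold change -0.89, edgeR adjusted p 0.136). Bgn, the proteoglycan biglycan, had 3752, 3449 and 3090 CPM in FID, against 5809, 5226 and 5174 CPM in control (log2 fold change -0.66, edgeR adjusted p 0.136). The genes most like a member in pattern were found by the root-mean-square distance between centred log2(CPM + 1) values over the 6 libraries. For Fn1 these were Col5a2 and Col5a1, chains of the collagen that starts fibrils, at distances of 0.098 and 0.103 log2 units, and Egr3 at 0.11. For Postn they were Col16a1 at 0.226, Comp, the thrombospondin of cartilage, at 0.310, and Itm2a at 0.310. For Tnc the nearest was Mfap5 at 0.164, for Thbs3 Col14a1 at 0.153 and for Thbs4 Pamr1 at 0.169. The flatter members Sparc, Thbs1, Thbs2, Ccn1 and Ccn2 had neighbours within 0.07 log2 units, from Grhpr for Thbs2 at 0.038 to Mllt6 for Thbs1 at 0.069. Among the members themselves, Fn1 and Tnc were the closest pair, at 0.232, and Postn and Ccn1 the farthest apart, at 1.38.

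Receptors for these proteins lay on both sides of 0. Of 22 tested receptor genes, 14 were below 0, where 52.2% of all genes were, and 8 above, with a median of -0.19, and 0 passed edgeR's adjusted test. At an unadjusted p under 0.05 there were 5 lower (9.21% of all genes) and 2 higher (9.81% of all genes), and DESeq2 called 1 lower (2.19% of its genes) and 0 higher. The 2 higher ones, named after their values were seen, were Cd47 and Tlr4. Cd47, the thrombospondin receptor, had 187, 361 and 268 CPM in FID 1, 2 and 3, against 153, 167 and 185 CPM in control 1, 2 and 3 (log2 fold change 0.69, edgeR adjusted p 0.194). Tlr4, an innate immune receptor that tenascin-C can activate, had 40.1, 54.6 and 52.4 CPM in FID, against 39.95, 28.2 and 29.98 CPM in control (log2 fold change 0.59, edgeR adjusted p 0.179). In both genes FID 1 lay just above the highest control library. Lrp6, a Wnt coreceptor that CCN proteins bind, had 130, 103 and 112 CPM in FID 1, 2 and 3, against 202, 169 and 150.1 CPM in control 1, 2 and 3 (log2 fold change -0.59, edgeR adjusted p 0.144). Itga9, the tenascin-binding integrin chain, had 58.5, 50.5 and 46.9 CPM in FID, against 97.3, 78.0 and 63.1 CPM in control (log2 fold change -0.61, edgeR adjusted p 0.167). Cacna2d1, a calcium channel subunit that binds thrombospondins, had 27.7, 19.0 and 24.2 CPM in FID, against 35.8, 32.0 and 38.5 CPM in control (log2 fold change -0.58, edgeR adjusted p 0.167). Lrp1, the clearance receptor that takes up thrombospondins, had the highest mean CPM of the list, at 1668, 1375 and 1369 CPM in FID, against 2401, 2276 and 1718 CPM in control (log2 fold change -0.54, edgeR adjusted p 0.181). Itgb1, the chain shared by the fibronectin-binding integrins, had 976, 897 and 875 CPM in FID, against 986, 1027 and 1075 CPM in control (log2 fold change -0.17, edgeR adjusted p 0.476).

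Regulators and responses known for these genes were mostly below 0. All 35 listed genes of the YAP and TEAD, serum response factor and TGF-beta routes were tested, 30 were below 0 and the median log2 fold change was -0.46. In edgeR 0 passed in either direction, while at an unadjusted p under 0.05 there were 15 lower in FID (9.21% of all genes) and 0 higher (9.81% of all genes), and DESeq2 called 4 lower (2.19% of its genes) and 0 higher. Vcl, encoding the adhesion protein vinculin, had 109.8, 93.2 and 97.8 CPM in FID 1, 2 and 3, against 199.6, 153 and 145 CPM in control 1, 2 and 3 (log2 fold change -0.72, SE 0.16, edgeR adjusted p 0.136). Tead1, a DNA-binding partner of YAP, had 67.3, 52.9 and 60.7 CPM in FID, against 118, 84.3 and 88.9 CPM in control (log2 fold change -0.68, edgeR adjusted p 0.138). Amotl1, a YAP-binding scaffold gene, had 71.8, 63.5 and 68.1 CPM in FID, against 142, 96.8 and 89.0 CPM in control (log2 fold change -0.69, edgeR adjusted p 0.156). The 2 genes with the highest mean CPM of the list, the immediate early genes Egr1 and Fos, had log2 fold changes of 0.09 and 0.26 (edgeR adjusted p 0.846 and 0.495) and overlapped between the groups. Jun, another immediate early gene of the list, named after its values were seen, had 457, 367 and 312 CPM in FID, against 562, 549 and 475.5 CPM in control (log2 fold change -0.48, edgeR adjusted p 0.2004).

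**Figure D5:**
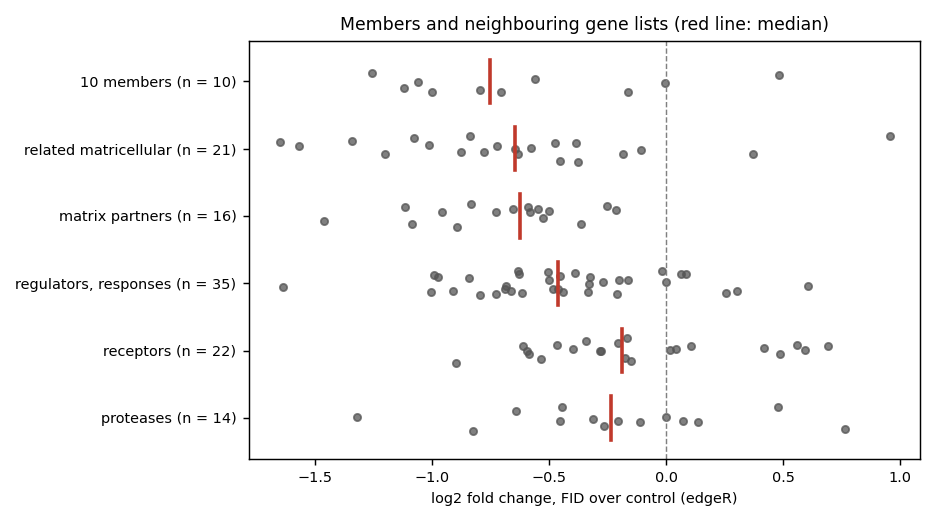
Each point is 1 tested gene, with its log2 fold change of FID over control on the horizontal axis, for the 10 members and 5 gene lists, and red lines mark the medians. The medians run from -0.75 for the members and -0.65 for related matricellular genes to -0.19 for receptors, and the members' only point well above 0 is Ccn1.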

How the data were processed

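The authors deposited raw counts of reads per gene for each of the 6 libraries. Bowtie2 2.5.4, HTSeq, STAR, DESeq2, SAMtools and cutadapt are named without roles in the submitters' processing notes, with mm10 as build. The sources used here give neither annotation release nor strand setting, which matters where a member overlaps a gene on the other strand. Lines that name no gene held 9.97% to 10.9% of the FID files and 9.60% to 9.83% of the control files, and were left out. Libraries of a group differed by 14.1 to 46.0 chi-square units per degree of freedom, so none was taken for a copy. Symbols, coordinates and exon lengths came from GENCODE vM21 and its name table, which matched 42462 of 43432 identifiers. Low counts were removed in edgeR 4.0.16 by filterByExpr, at a minimum count of 10 and total of 15, and the rest were scaled with TMM and tested with the two-sided quasi-likelihood test, with group as the only term and Benjamini-Hochberg adjustment over 12881 genes. SE are the log2 fold change over the root of F, and intervals are approximate. DESeq2 1.42.0 and limma 3.58.1 served as alternatives, and the procedures were tested on simulated data. A count of 0 allows up to 3 counts, 0.297 to 0.577 CPM of unscaled gene counts depending on depth, covering counting error only. Named genes are all members, in each list those with the smallest p and the highest mean, and the genes nearest in pattern. Ratios between members, Ly6a, Pdgfra and the marker and Mtx1 values printed were chosen after the values were seen. Members and lists were chosen with earlier results of these data known.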

Additional observations from a re-analysis of the deposited data

How the results depend on the processing

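The median log2 fold change of the members stayed below 0 under every alternative run, from -1.14 without FID 1 to -0.53 without control 1. Against 0 genes and 0 members called, edgeR without the low-count filter called 269 genes and 1 member, DESeq2 760 genes and 3 members, and limma-voom with sample weights 1531 genes and 4 members (Fn1, Tnc, Sparc and Thbs3). limma-voom without weights, DESeq2's size factors and library totals called 0 of both. With 1 library left out, edgeR called 0 to 359 genes and 0 to 2 members, the highest counts coming without FID 1, and 3 genes without control 1. All members called under any of these were lower in FID. Of 130 values of single members under the alternatives, 113 kept sign and side of the threshold, 10 newly passed and 7 changed sign. Thbs2 had 0.016 with library totals, 0.018 without the filter and -0.092 to 0.11 with 1 library left out. Thbs4 ranged from -1.38 to 0.049 and Ccn2 from -0.31 to 0.13, both above 0 without control 1. The cause was not tested. Deviations of same-numbered libraries correlated at 0.0119, -0.295 and 0.32, and not every library correlated best with its own number. With 3 libraries per group, these correlations cannot decide whether the replicate numbers shared by the groups pair the libraries. With the replicate block edgeR called 0 genes and 0 members, with a member median of -0.69 and a smallest adjusted p of 0.153. The block lowered the SE of Postn from 0.60 to 0.24, of Thbs4 from 0.60 to 0.15 and of Tnc from 0.27 to 0.13. It raised only those of Sparc and Thbs2, each from 0.16 to 0.18. The depth was ample for every member, the lowest count being 158, so the spread between libraries limits the comparison.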

Other observations

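Proteases that cut matricellular proteins were listed as well. Of 15 genes 14 were tested, 10 below and 4 above 0, with a median log2 fold change of -0.23, and edgeR called 0 in either direction. Adamts4, a protease of matrix proteoglycans, had 148, 111 and 107 CPM in FID 1, 2 and 3, against 518, 218 and 177 CPM in control 1, 2 and 3 (log2 fold change -1.32, SE 0.40, edgeR adjusted p 0.169). Mmp2, a gelatinase of stromal cells, had 573, 558 and 466 CPM in FID, against 1055, 727 and 708 CPM in control (log2 fold change -0.64, edgeR adjusted p 0.166). Among the lysosomal cathepsins, 2 lay above 0 and Ctsk, with a log2 fold change of -0.0019 (edgeR adjusted p 0.998), overlapped between the groups. Ctsl had 1112, 1236 and 978 CPM in FID, against 855, 805 and 726 CPM in control (log2 fold change 0.48, edgeR adjusted p 0.165), and Ctsb had 7070.4, 7658 and 5780 CPM in FID, against 5171, 4247 and 2651 CPM in control (log2 fold change 0.77, edgeR adjusted p 0.187). Of the 14 tested genes, 4 were lower and 2 higher in FID without overlap, where 12.3% and 13.0% of all genes were. At an unadjusted p under 0.05 there were 3 lower and 2 higher (9.21% and 9.81% of all genes). Summed macrophage and monocyte markers were higher in the same FID libraries, and the part of these cells in the differences was not tested.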
